A study of Mus musculus with 18 samples.

Results

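Gastrocnemius muscle of Zfp697 knockout mice was followed here through the return of body weight: 3 libraries from animals reloaded for 3 days were compared with 3 from animals unloaded for 10 days, across all expressed genes. These 6 libraries, chosen by their titles, are part of 18 in the series. The animals were female C57BL/6 mice. In the mKO genotype Zfp697, which encodes a zinc finger protein, is deleted in skeletal muscle only, while the other cells of the muscle keep the gene. The Cre driver is not given in the sources used here. The mKO reloading animals stood on their hindlimbs again after the unloading period, the mKO unloading animals were sampled at the end of it, and mKO control animals stayed in conventional cages throughout. Flox/flox mice, which keep Zfp697, went through the same 3 conditions. Polyadenylated RNA was sequenced, and whether each library came from its own animal is not stated in the labels, so p-values measure only the spread between libraries, which may be technical.

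Hindlimb unloading takes weight off the calf muscles, and disused fibres lose protein through ubiquitin ligases, the proteasome and autophagy. Glucocorticoids and the FoxO transcription factors control these routes. When weight returns, the weakened fibres are stretched while contracting. Chaperones and membrane repair proteins are then known to act on damaged sarcomeres, fibroblasts to lay down new matrix, and satellite cells, endothelial cells, fibroblasts and incoming macrophages to divide or gather.

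Reloading changed the mKO muscle broadly. Of 17833 genes tested, 3270 (18.3%) differed between mKO reloading and mKO unloading at an adjusted p under 0.05, 1699 of them higher (9.53%) and 1571 lower (8.81%). The counts of list members that rose or fell in this comparison are to be read beside these shares of 9.53% and 8.81%. The adjusted p, here and below, is the Benjamini-Hochberg adjusted p of edgeR's quasi-likelihood test over all tested genes. Levels are in CPM, counts scaled to library size after TMM, and changes are log2 fold changes of mKO reloading over mKO unloading with their standard error (SE), with n = 3 libraries a group. Most called changes were small: their median size was 0.51 log2, and 446 genes rose and 175 fell by more than 2-fold. The CPM ranges of the 3 and 3 libraries did not overlap for 5867 genes (32.9%), and 3139 of these were also called. Genes that rose made up 174862 CPM in reloaded and 108814 CPM in unloaded muscle on average, and genes that fell made up 121631 and 173007 CPM. The count was 2058 without mKO unloading replicate 1 and 2107 without its replicate 3, and 2107 when the model held only these 2 groups. Of the genes also called in those 3 fits 0 changed sign, which is a weak check because the fits reuse the same libraries.

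**Figure D1:**
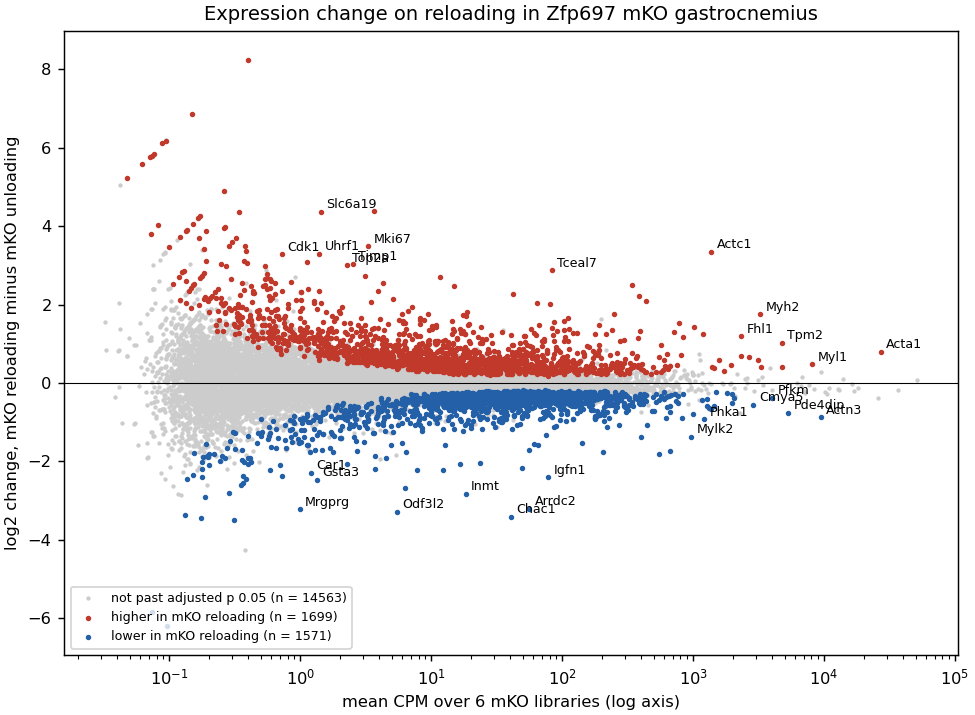
Mean CPM over the 6 libraries (x, log axis) against the log2 change of mKO reloading over mKO unloading (y), with 1 point per tested gene. Red and blue points passed an adjusted p of 0.05, 1699 above and 1571 below zero, and the labels mark the genes with the largest changes in log2 and in CPM among those whose ranges did not overlap.

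The muscle identity of the libraries was plain in their levels. Ckm, the muscle creatine kinase, stood at 10337, 9532 and 11423 CPM in mKO reloading and at 11621, 10499 and 11985 CPM in mKO unloading. Zfp697 itself was low throughout, at 1.6, 1.95 and 1.47 CPM in mKO reloading, against 2.47, 1.09 and 1.41 CPM in mKO unloading and 1.05, 1.31 and 1.25 CPM in mKO control. Its groups overlapped, and its change of 0.02 ± 0.25 (SE) did not pass (adjusted p = 0.975). These counts take in the whole gene, its deleted stretch is not given and non-muscle cells still carry it, so they are no check of the genotype. Total counts ran from 45069595 to 51592566 per library. The first principal component over all 18 libraries, with 30.3% of the variance, placed mKO reloading at 20.7, 33.7 and 12.1, mKO unloading at -33.9, -24.9 and -39.6, and mKO control at -11.8, -1.8 and -5.2.

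Genes of cell division rose. Mki67, the nuclear marker of cycling cells, stood at 7.06, 5.7 and 5.31 CPM in mKO reloading, against 0.437, 0.569 and 0.598 CPM in mKO unloading. The lowest reloaded library was several fold above the highest unloaded one, and the change was 3.49 ± 0.46 (adjusted p = 7.53e-05). Top2a, the topoisomerase that untangles replicated chromosomes, stood at 5.07, 4.43 and 2.56 CPM in mKO reloading and at 0.262, 1 and 0.256 CPM in mKO unloading, a change of 3 ± 0.43 (adjusted p = 0.000151). Cdk1, the kinase that drives entry into mitosis, stood at 1.69, 1.31 and 0.922 CPM in mKO reloading, against 0.0873, 0.137 and 0.171 CPM in mKO unloading, a change of 3.28 ± 0.57 (adjusted p = 0.000728). Bub1, a kinase of the spindle checkpoint, stood at 0.594, 0.436 and 0.451 CPM in mKO reloading, while 2 mKO unloading libraries had 0.0437 and 0.0455 CPM and replicate 3 had none (adjusted p = 0.00115). Of 26 mitosis and cytokinesis genes 19 rose and 1, the spindle gene Tpx2, fell, and the list's median was 1.64, against 0.006 over all tested genes. Their summed level was 63, 65.1 and 49.1 CPM in mKO reloading, against 32.3, 29.6 and 27.3 CPM in mKO unloading. In bulk muscle, more dividing cells and more such RNA per cell cannot be told apart.

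Since 19 of the 26 mitosis genes rose, the promoters of 4 of them are shown. The factor NF-Y binds the CCAAT box of such promoters. Their cell cycle homology region (CHR), TTTGAA, is bound by the repressive DREAM complex in resting cells and by MuvB with B-MYB or FOXM1 in dividing cells. The 100 bases before the RefSeq start are printed 5′ to 3′ on the gene's strand in build GRCm38.p6, for Bub1 (chr2:127831860-127831959), Mki67 (chr7:135716380-135716479), Cdk1 (chr10:69352913-69353012) and Top2a (chr11:99024190-99024289), all on the minus strand. Capitals mark CCAAT or its reverse complement ATTGG, and TTTGAA or its reverse complement TTCAAA.
Bub1: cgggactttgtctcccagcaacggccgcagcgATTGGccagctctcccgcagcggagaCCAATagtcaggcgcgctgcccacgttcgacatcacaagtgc
Mki67: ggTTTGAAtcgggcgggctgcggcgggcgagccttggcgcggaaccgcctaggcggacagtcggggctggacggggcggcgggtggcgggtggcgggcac
Cdk1: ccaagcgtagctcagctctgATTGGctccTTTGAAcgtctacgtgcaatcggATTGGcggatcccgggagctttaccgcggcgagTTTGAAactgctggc
Top2a: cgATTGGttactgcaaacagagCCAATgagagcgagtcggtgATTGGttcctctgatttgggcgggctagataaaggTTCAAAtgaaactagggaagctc
Within these bases Cdk1 had 2 CCAAT boxes and 2 CHR matches, Top2a 3 and 1, Bub1 2 CCAAT boxes alone, and Mki67 1 CHR alone. Over the 250 bases before the start, on both strands, CCAAT was found in 20 of the 23 mitosis genes with a promoter in the table (87.0%), against 34.5% of all 27025 promoters in it. TTTGAA was found in 8 of 23 (34.8%), against 16.3%. The AP-1 motif TGANTCA was found in 0 of the 23, against 6.87%, and the E-box CACGTG in 1 of them (4.35%), against 6.05%. CCAAT was also found in 13 of 22 replication gene promoters (59.1%) and TTTGAA in 3 of them (13.6%). These counts describe letters in fixed windows and carry no test. The 27025 promoters include those of genes not tested here, and the 23 include mitosis genes that were not called higher.

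Of 27 DNA replication genes 12 rose and 0 fell, with a list median of 0.67. Uhrf1, which carries DNA methylation over to new strands, stood at 2.63, 2.65 and 2.31 CPM in mKO reloading, against 0.328, 0.319 and 0.128 CPM in mKO unloading, a change of 3.29 ± 0.36 (adjusted p = 2.03e-05). Ccnd1, the cyclin D1 that moves cells out of G1, stood at 13.6, 15.1 and 14.9 CPM in mKO reloading, against 4.87, 4.14 and 3.74 CPM in mKO unloading, a change of 1.77 ± 0.16 (adjusted p = 5.21e-06). Its libraries were tight within each group and far apart between them. Mcm5, a subunit of the replicative helicase, rose by 1.4 ± 0.28 (adjusted p = 0.00209), and Cdt1, which loads that helicase, by 1.53 ± 0.33 (adjusted p = 0.00333). The helicase genes Mcm2, Mcm3 and Mcm6 and the enzyme genes Rrm2, Tk1 and Lig1 also rose.

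Of 16 cell-cycle arrest, p53 and Gadd45 genes 0 rose and 9 fell, with a median of -0.35. The summed level of this list overlapped between the groups. It was 1464, 1225 and 1616 CPM in mKO reloading, against 1299, 1617 and 1423 CPM in mKO unloading. Gadd45a, a stress gene of atrophying fibres, stood at 16.7, 14.9 and 15.2 CPM in mKO reloading, against 27.1, 27.5 and 24.4 CPM in mKO unloading, a change of -0.75 ± 0.11 (adjusted p = 0.00016). Cdkn1a, the inhibitor p21, changed by -0.86 ± 0.24 (adjusted p = 0.0184), and the others that fell included Cdkn1b, Cdkn2c, Mdm2 and Sesn1. The Cdkn1a call was lost without mKO reloading replicate 1 (adjusted p = 0.0904) or 3 (adjusted p = 0.0545) and without mKO unloading replicate 2 (adjusted p = 0.0823) or 3 (adjusted p = 0.0575). Of the list, 3 genes fell without mKO reloading replicate 1 and 4 without mKO unloading replicate 3.

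Collagen genes rose nearly as a block. Col1a1, a chain of the main fibrillar collagen, stood at 552, 660 and 529 CPM in mKO reloading, against 53.1, 139 and 114 CPM in mKO unloading, a change of 2.51 ± 0.32 (adjusted p = 5.85e-05). Col3a1, the thinner-fibril collagen of young matrix, stood at 714, 725 and 479 CPM in mKO reloading, against 86.5, 196 and 128 CPM in mKO unloading, a change of 2.23 ± 0.26 (adjusted p = 3.66e-05). Unloading replicate 1 was the lowest library for both genes, and even the highest unloaded library lay well below every reloaded one. Of 12 fibrillar and type VI collagen genes 11 rose and 0 fell, with a median of 1.32, and Col14a1 did not pass. Their sum was 2756, 3090 and 2374 CPM in mKO reloading, against 524, 945 and 755 CPM in mKO unloading.

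In the basement membrane, the sheet around each fibre and capillary, 11 of 14 genes rose and 0 fell, with a median of 0.68. Among them were Col4a1 at 1.26 ± 0.19 (adjusted p = 0.000235), Col18a1 at 1.01 ± 0.1 (adjusted p = 9.44e-06) and Sparc, which binds collagen on its way out of the cell, at 1.32 ± 0.14 (adjusted p = 2.03e-05). Of 20 matricellular proteins and proteoglycans 11 rose and 0 fell, with a median of 0.65. Postn, the periostin of healing matrix, stood at 71.8, 77.6 and 58.5 CPM in mKO reloading, against 10.2, 19.3 and 13.7 CPM in mKO unloading, a change of 2.27 ± 0.31 (adjusted p = 0.0001). Tnc, the tenascin of loaded tendon and injured muscle, rose by 1.71 ± 0.3 (adjusted p = 0.000794).

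The enzymes that mature collagen rose as well, 11 of 18 with 0 down. Serpinh1, the collagen chaperone, stood at 110, 149 and 103 CPM in mKO reloading, against 46.4, 49.6 and 41.3 CPM in mKO unloading, a change of 1.4 ± 0.15 (adjusted p = 1.61e-05). Loxl2, which crosslinks collagen, rose by 1.27 ± 0.21 (adjusted p = 0.000426). The enzyme count was 7 without mKO reloading replicate 2 and 7 without mKO unloading replicate 1. Among 19 matrix proteases and inhibitors 4 rose (Timp1, Adam12, Ctsk and Plat) and Timp4 fell. Of the 6 libraries, leaving out any 1 other than mKO reloading replicate 2 ended the Timp4 call, with an adjusted p of up to 0.127. Timp1, a secreted inhibitor of metalloproteases, stood at 4.04, 5.34 and 4.02 CPM in mKO reloading, against 0.568, 0.683 and 0.385 CPM in mKO unloading, a change of 3.04 ± 0.34 (adjusted p = 2.57e-05).

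**Figure D2:**
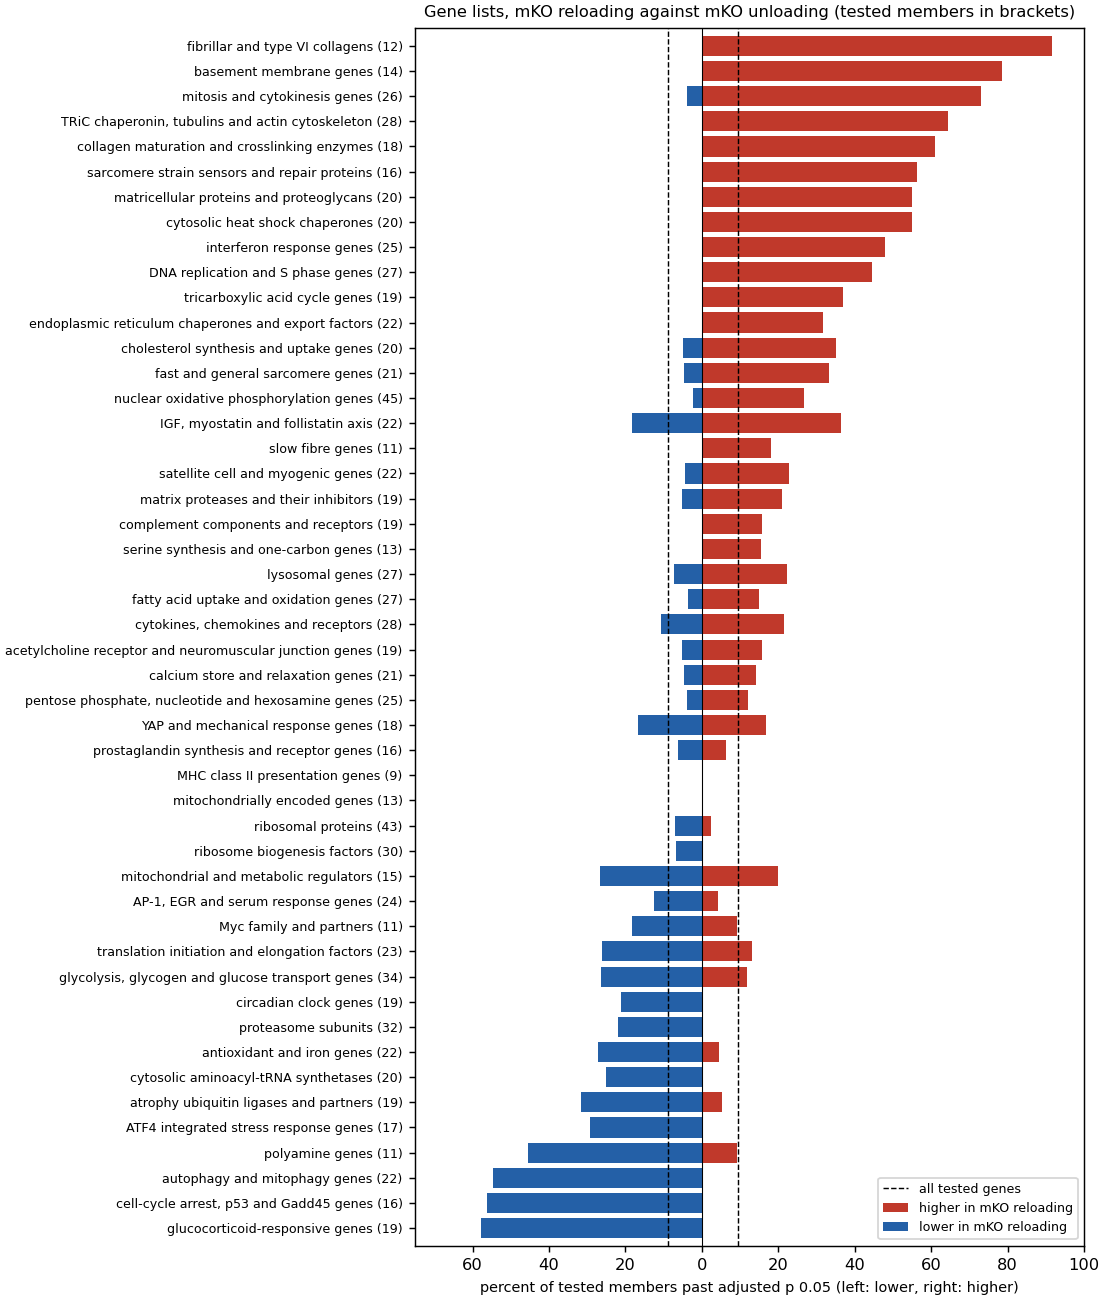
Percent of the tested members of each gene list (rows, with the number tested in brackets) that passed an adjusted p of 0.05, higher in mKO reloading to the right and lower to the left; dashed lines mark the 9.53% and 8.81% of all tested genes. Fibrillar collagens, with 11 of 12 genes higher, stand at the top and glucocorticoid-responsive genes, with 11 of 19 lower, at the bottom.

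Within the fibre, reloading raised several contractile genes. Acta1, the adult skeletal actin, stood at 37924, 30853 and 34491 CPM in mKO reloading, against 14380, 23297 and 21674 CPM in mKO unloading, a change of 0.8 ± 0.19 (adjusted p = 0.00737). Actc1, the cardiac actin of developing and stressed muscle, stood at 2044, 2634 and 2797 CPM in mKO reloading, against 73.3, 415 and 251 CPM in mKO unloading, a change of 3.34 ± 0.57 (adjusted p = 0.000674). The unloaded libraries of Actc1 were far apart from each other, with replicate 1 lowest, yet none came near a reloaded one. Tpm2, a tropomyosin, rose by 1.03 ± 0.16 (adjusted p = 0.000232) and Actn2, the alpha-actinin found in all fibre types, by 1.26 ± 0.26 (adjusted p = 0.0024). Actn3, the alpha-actinin of fast fibres, stood at 7176, 5825 and 7103 CPM in mKO reloading, against 13860, 10012 and 12789 CPM in mKO unloading, a change of -0.87 ± 0.12 (adjusted p = 0.000108). Of 21 fast and general sarcomere genes 7 rose and only Actn3 fell. Of 11 slow fibre genes 2 rose and 0 fell: Casq2, the calcium buffer of slow and cardiac muscle, by 2.01 ± 0.26 (adjusted p = 7.89e-05), and Myl2, which was not called without mKO reloading replicate 1 (adjusted p = 0.138) or 3 (adjusted p = 0.0842) or mKO unloading replicate 1 (adjusted p = 0.141) or 3 (adjusted p = 0.114).

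Among the myosin heavy chains, whose isoforms set contraction speed, Myh2 of type IIA fibres changed. It stood at 5638, 4501 and 4893 CPM in mKO reloading, against 1478, 1627 and 1352 CPM in mKO unloading, a change of 1.75 ± 0.29 (adjusted p = 0.000534). Per transcript length, Myh2 made up 7.86%, 6.96% and 5.93% of the 4 adult isoforms in mKO reloading, against 2.48%, 2.38% and 2.02% in mKO unloading, and 3.53%, 4.13% and 5.09% in mKO control. Myh4, the fastest isoform, remained the main one at 82.7%, 86.8% and 88.2% of the 4 in mKO reloading, against 91.6%, 90.8% and 92.0% in mKO unloading. In log2, Myh4 changed by 0.08 (adjusted p = 0.698) and Myh1, the IIX isoform, by 0.39 (adjusted p = 0.131).

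Proteins that sense strain at the sarcomere or patch the membrane rose in 9 of 16 cases with 0 down, with a median of 0.62. Cryab, a small heat shock protein that binds desmin and titin, stood at 1442, 1223 and 814 CPM in mKO reloading, against 411, 452 and 331 CPM in mKO unloading, a change of 1.54 ± 0.26 (adjusted p = 0.000607). The repair genes Dysf and Trim72, whose products reseal the fibre membrane, rose by 0.5 (adjusted p = 0.00133) and 0.81 (adjusted p = 0.00274). Ankrd1, a titin-bound repeat protein, stood at 44.4, 80.8 and 22.8 CPM in mKO reloading and at 24.4, 21.6 and 14.3 CPM in mKO unloading, so the groups overlapped. Its change of 1.3 ± 0.37 passed (adjusted p = 0.0197), but not without mKO reloading replicate 2 (adjusted p = 0.163) or mKO unloading replicate 3 (adjusted p = 0.0959). The list's count was 5 without either of these libraries.

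**Figure D3:**
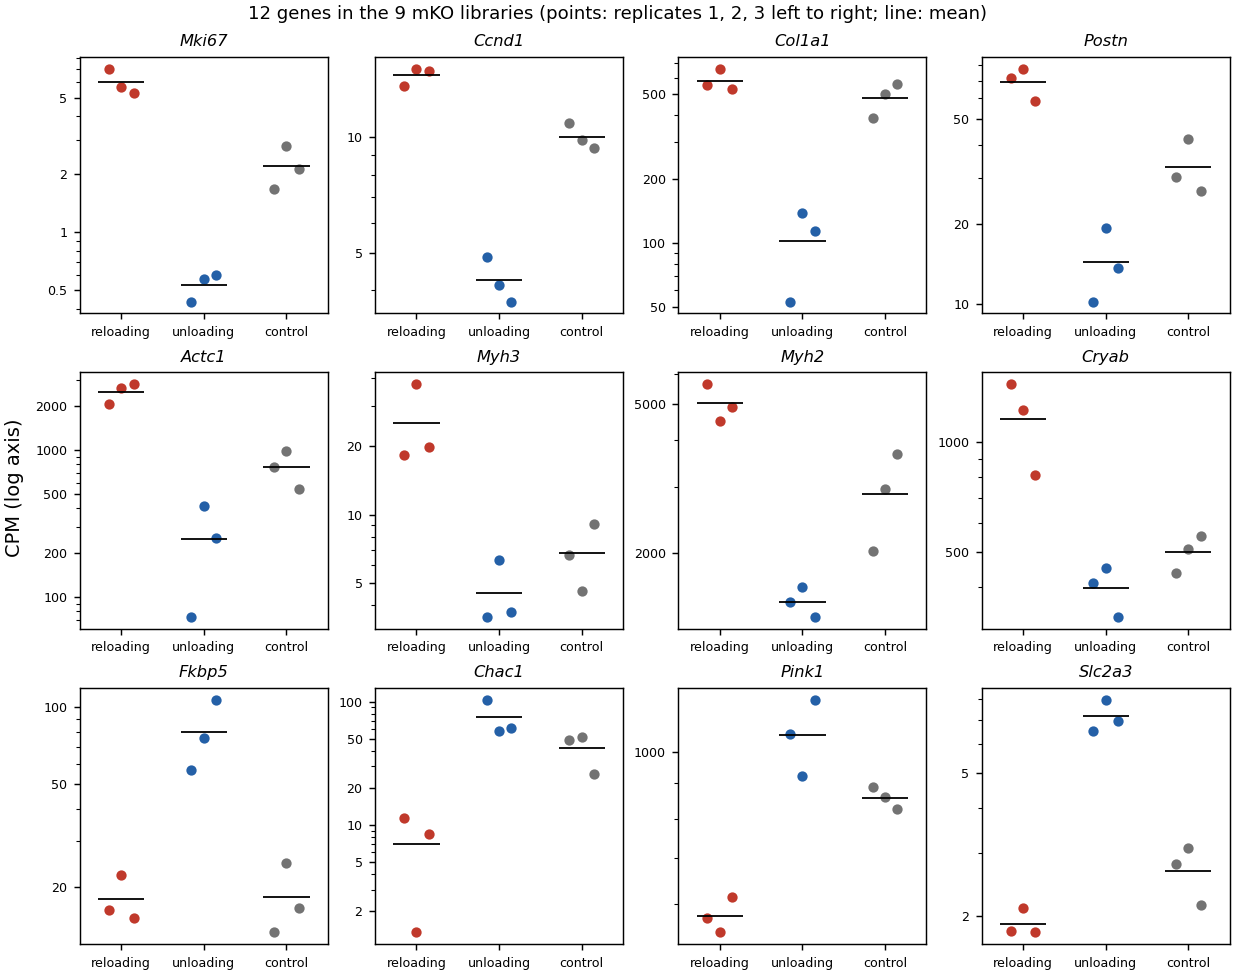
CPM (log axes, each panel with its own scale) of 12 genes in the mKO reloading, mKO unloading and mKO control libraries, with 1 point per library and a line at the mean. These 12 genes were picked from those called, some by a rule that asked for ranges without overlap. That their reloaded and unloaded points do not overlap follows in part from this choice. Col1a1 and Fkbp5 in reloaded muscle lie in or near the range of the control libraries.

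Folding machinery rose alongside. Of 20 cytosolic heat shock genes 11 rose and 0 fell, with a median of 0.39. Hspb6, a small heat shock protein of muscle, stood at 1605, 1512 and 1333 CPM in mKO reloading, against 486, 635 and 532 CPM in mKO unloading, a change of 1.43 ± 0.21 (adjusted p = 0.000167). Hsph1, a nucleotide exchange partner of Hsp70, rose by 1.08 ± 0.14 (adjusted p = 5.96e-05) and Hspa8, the constitutive Hsp70, by 0.72 ± 0.14 (adjusted p = 0.00199). The stress-inducible Hspa1a and Hspa1b did not pass. Of 28 genes for the TRiC chaperonin, which folds actin and tubulin, and for the cytoskeleton 18 rose and 0 fell, with a median of 0.37. The rises numbered 12 without mKO reloading replicate 2 and 13 without mKO unloading replicate 1 or 3. Tubb5, a beta-tubulin, stood at 66.5, 85.4 and 60.6 CPM in mKO reloading, against 35.5, 35.8 and 37.6 CPM in mKO unloading, a change of 0.96 ± 0.11 (adjusted p = 2.44e-05). In the endoplasmic reticulum 7 of 22 chaperones and export factors rose and 0 fell. Pdia3, which pairs cysteines in new secreted proteins, rose by 0.66 ± 0.1 (adjusted p = 0.000203) and Pdia4 by 0.68 ± 0.12 (adjusted p = 0.000898), and 4 of the 22 rose without mKO reloading replicate 2.

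Among 22 satellite cell and myogenic genes 5 rose and Myl4, an embryonic light chain, fell. The falls numbered 0 without mKO reloading replicate 1 or 3 or mKO unloading replicate 1 or 3. They also numbered 0 with total counts as the scaling, with a replicate block and with only the compared groups. Myh3, the embryonic myosin of regenerating fibres, stood at 18.4, 37.5 and 19.9 CPM in mKO reloading, against 3.56, 6.33 and 3.74 CPM in mKO unloading, a change of 2.48 ± 0.45 (adjusted p = 0.0011). Mymk, which fuses myoblasts, stood at 1.05, 1.17 and 0.697 CPM in mKO reloading, against 0.0218, 0.273 and 0.128 CPM in mKO unloading, a change of 2.78 ± 0.51 (adjusted p = 0.00119). Pax7, Myf5 and Myod1, which mark satellite cells and early myoblasts, did not pass. Myog, the factor of myoblast differentiation, was high in 1 reloaded library: it stood at 7.7, 18.1 and 7.19 CPM in mKO reloading, against 6.2, 7.42 and 5.86 CPM in mKO unloading. Its change of 0.77 ± 0.26 (adjusted p = 0.0493) was lost without mKO reloading replicate 2 (adjusted p = 0.515) and without mKO unloading replicate 1 (adjusted p = 0.137), 2 (adjusted p = 0.0543) or 3 (adjusted p = 0.152), as well as when only the compared groups were modelled (adjusted p = 0.138). The myogenic count was 3 without mKO unloading replicate 1. Of 19 acetylcholine receptor and junction genes 3 rose, among them the receptor subunit Chrna1 at 0.57 ± 0.13 (adjusted p = 0.00466), and Gadd45a fell.

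Of 19 glucocorticoid-responsive genes 11 fell and 0 rose, with a median of -0.72. Fkbp5, a chaperone of the glucocorticoid receptor, stood at 16.3, 22.2 and 15.1 CPM in mKO reloading, against 56.9, 76 and 107 CPM in mKO unloading, a change of -2.16 ± 0.29 (adjusted p = 9e-05). In mKO control it stood at 13.3, 24.8 and 16.6 CPM, a range that held all 3 reloaded libraries. Ddit4, an inhibitor of mTORC1, stood at 4.46, 6.56 and 8.15 CPM in mKO reloading, against 15.8, 28.9 and 35.9 CPM in mKO unloading, a change of -2.07 ± 0.46 (adjusted p = 0.00478). The transcription factors Klf9 and Klf15, the glutamine synthetase Glul and the kinase Sgk1 also fell. The count was 6 without mKO reloading replicate 1 and 7 without mKO unloading replicate 3.

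Genes of autophagy, which digests organelles and protein in the lysosome, fell in 12 of 22 cases with 0 up and a median of -0.32. Pink1, a kinase that marks damaged mitochondria, stood at 573, 546 and 614 CPM in mKO reloading, against 1062, 924 and 1193 CPM in mKO unloading, a change of -0.88 ± 0.09 (adjusted p = 1.55e-05). Ulk1, the kinase that starts autophagy, fell by 0.82 ± 0.1 on the log2 scale (adjusted p = 4.96e-05) and Map1lc3a, a protein of the autophagosome membrane, by 0.77 ± 0.09 (adjusted p = 4.25e-05). The mitophagy receptors Bnip3 and Bnip3l and the cargo receptor Sqstm1 fell too. The summed level of the list was 2130, 2032 and 2181 CPM in mKO reloading, below the 3199, 2843 and 3335 CPM of mKO unloading and also below the 2761, 2586 and 2670 CPM of mKO control. Gene by gene, 3 of the 22 passed as lower than mKO control and 0 as higher, with a median of -0.18. Among all tested genes 0.841% were lower and 1.34% higher than control.

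Of 19 atrophy ubiquitin ligases and partners 6 fell and 1 rose. Trim63 and Fbxo32, the 2 ligases known as MuRF1 and atrogin-1, both fell. Trim63 stood at 190, 201 and 200 CPM in mKO reloading, against 308, 286 and 275 CPM in mKO unloading, a change of -0.56 ± 0.08 (adjusted p = 0.000166). Fbxo32 stood at 170, 95.6 and 155 CPM in mKO reloading, against 320, 296 and 292 CPM in mKO unloading, a change of -1.11 ± 0.24 (adjusted p = 0.00337). The gene that rose, Fbxl22, a ligase subunit of the Z-disc, stood at 16.4, 28.8 and 15.8 CPM in mKO reloading, against 2.66, 4.12 and 2.52 CPM in mKO unloading, a change of 2.71 ± 0.25 (adjusted p = 5.47e-06). Among 32 proteasome subunits 7 fell and 0 rose with a median of -0.11, and 3 or 4 fell without mKO reloading replicate 2 or 3 or mKO unloading replicate 1 or 3. Psmd1 of the regulatory particle was at -0.31 ± 0.06 (adjusted p = 0.00194).

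Genes of the integrated stress response, in which the factor Atf4 answers amino acid shortage, fell in 5 of 17 cases with 0 up. Chac1, an enzyme that breaks down glutathione, had a larger fall in log2 than the other 7 genes picked for their large falls. It stood at 11.4, 1.35 and 8.44 CPM in mKO reloading, against 104, 57.4 and 61.6 CPM in mKO unloading, a change of -3.41 ± 0.51 (adjusted p = 0.00021). Reloaded replicate 2 was lowest, and all 3 were also below the 49, 51.9 and 25.8 CPM of mKO control. Among 23 translation factors 3 rose and 6 fell. Eef2, which moves the ribosome along, stood at 1136, 956 and 1074 CPM in mKO reloading, against 1941, 1356 and 1687 CPM in mKO unloading, a change of -0.65 ± 0.11 (adjusted p = 0.000518). Eif4ebp1, which holds back cap-dependent translation, fell by 1.01 ± 0.22 on the log2 scale (adjusted p = 0.00373). The 3 that rose were 1 without mKO unloading replicate 1 or 3. Of 43 ribosomal protein genes 1 rose and 3 fell, and of 30 ribosome biogenesis genes 0 rose and 2, Ncl and Wdr43, fell. Of the ribosomal protein genes 1 fell without mKO unloading replicate 1, and 0 of the biogenesis genes fell without mKO reloading replicate 1 or mKO unloading replicate 1 or 3.

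**Figure D4:**
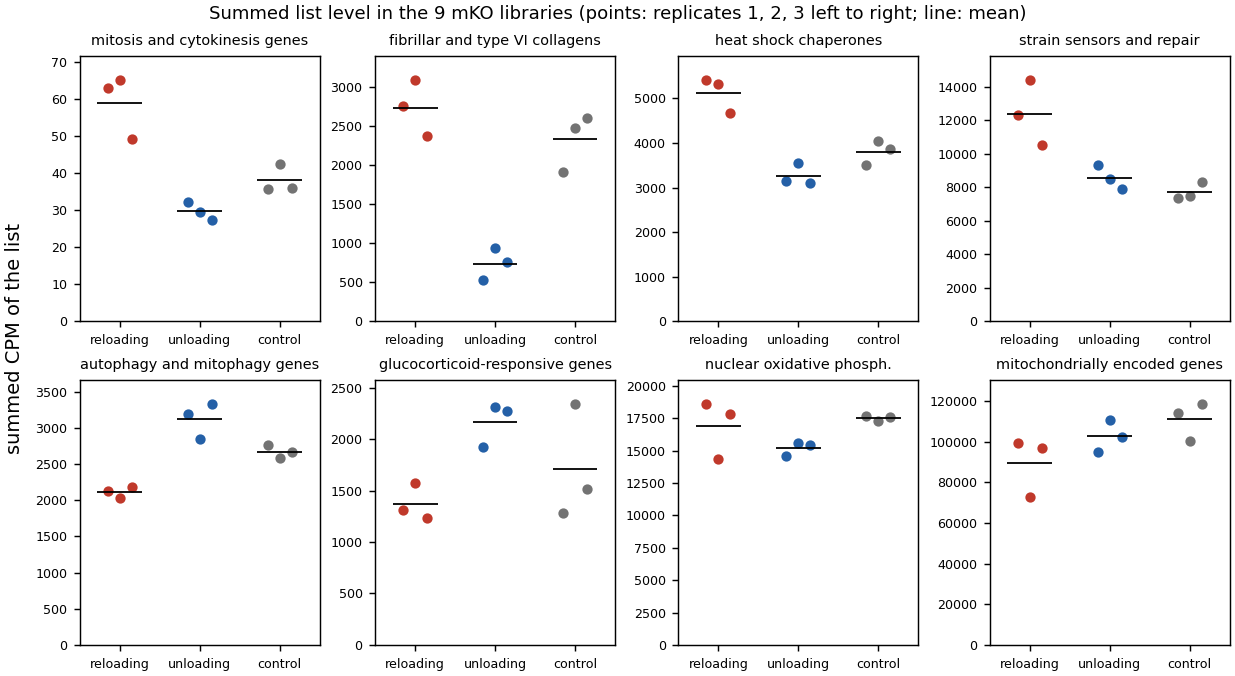
Summed CPM of 8 gene lists in the 9 mKO libraries, with 1 point per library, a line at the mean and axes from 0. The reloaded libraries lie above the unloaded ones for mitosis genes, collagens, heat shock chaperones and strain sensors and below them for autophagy and glucocorticoid-responsive genes, while the 2 sets overlap for nuclear oxidative phosphorylation and mitochondrially encoded genes.

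The number of calls in energy metabolism depended on single libraries. Of 45 nuclear oxidative phosphorylation genes 12 rose and Cox8b fell, with a median of 0.14. Cycs, cytochrome c, stood at 387, 304 and 352 CPM in mKO reloading, against 228, 261 and 236 CPM in mKO unloading, a change of 0.52 ± 0.09 (adjusted p = 0.000508). Of 19 tricarboxylic acid cycle genes 7 rose and 0 fell, for example Dlst, a part of the oxoglutarate dehydrogenase complex, at 0.61 ± 0.11 (adjusted p = 0.000898). Of 27 fatty acid genes 4 rose and the transporter Slc27a1 fell, beside 9.53% and 8.81% of all tested genes. Fabp3, which carries fatty acids in oxidative fibres, stood at 445, 256 and 338 CPM in mKO reloading, against 125, 168 and 115 CPM in mKO unloading, a change of 1.35 ± 0.23 (adjusted p = 0.000534). Leaving out mKO reloading replicate 2 gave 21, 11 and 13 rises in these 3 lists, and leaving out mKO reloading replicate 1 or mKO unloading replicate 1 gave 4, 3 and 2. Without mKO reloading replicate 1 the oxidative phosphorylation genes that fell numbered 4, and without mKO reloading replicate 2 or 3 or mKO unloading replicate 1 or 3 they numbered 0. Slc27a1 was not called without mKO reloading replicate 2 (adjusted p = 0.0589) or mKO unloading replicate 2 (adjusted p = 0.0565) or 3 (adjusted p = 0.0599). The number was also 7, 4 and 2 without mKO unloading replicate 3, and for fatty acid genes 2 without mKO reloading replicate 3 and 9 without mKO unloading replicate 2. The 13 mitochondrially encoded messages included 0 that passed, and their sum was 99636, 72691 and 96806 CPM in mKO reloading, lowest in replicate 2, against 95013, 110756 and 102386 CPM in mKO unloading.

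Of 34 glycolysis, glycogen and glucose transport genes 9 fell and 4 rose, with a median of 0.0, and the rises numbered 2 without mKO unloading replicate 1. Among all tested genes 8.81% fell and 9.53% rose. Slc2a3, a high-affinity glucose transporter, stood at 1.81, 2.1 and 1.8 CPM in mKO reloading, against 6.55, 7.99 and 6.97 CPM in mKO unloading, a change of -1.91 ± 0.17 (adjusted p = 5.21e-06). Phka1, a subunit of phosphorylase kinase, stood at 886, 758 and 852 CPM in mKO reloading, against 1436, 1649 and 1665 CPM in mKO unloading, a change of -0.93 ± 0.12 (adjusted p = 6.53e-05). Pfkm, the muscle phosphofructokinase, was at -0.38 ± 0.08 (adjusted p = 0.0044). Smox, the spermine oxidase of atrophying muscle, fell by 1.52 ± 0.17 on the log2 scale (adjusted p = 2.25e-05). Its list of 11 polyamine genes had 5 falls and 1 rise, and 2 or 3 falls without any 1 library other than mKO unloading replicate 2. Mss51, a mitochondrial regulator of fast fibres that answers myostatin, stood at 95.2, 79.4 and 108 CPM in mKO reloading, against 363, 259 and 330 CPM in mKO unloading, a change of -1.75 ± 0.31 (adjusted p = 0.000872).

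Of 24 AP-1, EGR and serum response genes, which answer mechanical and growth signals early, 1 rose and 3 fell. Among all tested genes 9.53% rose and 8.81% fell. Without mKO reloading replicate 1 the list had 2 rises and 1 fall. Egr1, a factor induced within minutes of stimulation, stood at 23.6, 48.8 and 28.7 CPM in mKO reloading, against 12.3, 15.5 and 19.8 CPM in mKO unloading, a change of 1.09 ± 0.33 (adjusted p = 0.0271). That call was lost without mKO reloading replicate 2 (adjusted p = 0.165) and without mKO unloading replicate 1 (adjusted p = 0.119) or 2 (adjusted p = 0.0633). Klf6, a zinc finger factor of injured tissue, stood at 32.3, 35 and 37.6 CPM in mKO reloading, against 70.1, 60.9 and 61.5 CPM in mKO unloading, a change of -0.88 ± 0.13 (adjusted p = 0.000263). In the list of YAP and mechanical response genes 3 of 18 rose and 3 fell, again beside 9.53% and 8.81% of all tested genes. Ccn2, the connective tissue growth factor, stood at 10.9, 14.4 and 19.4 CPM in mKO reloading, against 37.4, 35.8 and 28 CPM in mKO unloading, a change of -1.18 ± 0.26 (adjusted p = 0.00409). Amotl2 and Ccn1, which with Ccn2 are common readouts of YAP, were the other 2 that fell. Without mKO reloading replicate 1 or mKO unloading replicate 1 only 1 of the 18 fell, and the rises numbered 5 without mKO reloading replicate 1 and 0 without mKO reloading replicate 2 or mKO unloading replicate 3.

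In the IGF, myostatin and follistatin axis 8 of 22 genes rose and 4 fell. Fstl1, a secreted follistatin-like protein, stood at 147, 179 and 124 CPM in mKO reloading, against 67.2, 81.6 and 63.3 CPM in mKO unloading, a change of 1.08 ± 0.13 (adjusted p = 4.25e-05). Inhbb, an activin subunit, stood at 0.754, 1.21 and 1.39 CPM in mKO reloading, against 3.34, 2.94 and 2.65 CPM in mKO unloading, a change of -1.4 ± 0.34 (adjusted p = 0.00738). Mstn, the myostatin gene, and Fst, its binding protein, did not pass. The rises numbered 5 without mKO reloading replicate 2 or mKO unloading replicate 1, and the falls 2 without mKO reloading replicate 1 or mKO unloading replicate 3.

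Of 22 macrophage and monocyte markers 5 rose and 0 fell, with a median of 0.38. Cd68, a lysosomal protein of macrophages, stood at 10.4, 17.5 and 6.41 CPM in mKO reloading, against 3.41, 3.19 and 2.33 CPM in mKO unloading, a change of 1.94 ± 0.28 (adjusted p = 0.000151). Mrc1, the mannose receptor of resident macrophages, stood at 38.1, 46.3 and 37.6 CPM in mKO reloading, against 28.1, 26.8 and 20.2 CPM in mKO unloading, a change of 0.7 ± 0.14 (adjusted p = 0.00249). The pan-macrophage genes Adgre1 and Csf1r, the monocyte genes Ccr2 and Ly6c2 and the scavenger receptor Cd163 did not pass. The markers summed to 205, 257 and 183 CPM in mKO reloading, against 188, 170 and 128 CPM in mKO unloading, so the groups overlapped. The count was 3 without mKO reloading replicate 2 and 2 without mKO unloading replicate 3. In the other immune lists 0 of 6 tested neutrophil markers, 0 of 8 lymphocyte markers, 0 of 7 mast cell markers and 0 of 9 MHC class II genes passed in either direction. The neutrophil markers summed to 2.01, 2.56 and 2.93 CPM in mKO reloading and to 2.82, 5.96 and 2.89 CPM in mKO unloading, and Ly6g, which defines them, had no count in these 6 libraries.

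Interferon response genes rose in 12 of 25 cases with 0 down and a median of 0.43. Oasl2, a member of the oligoadenylate synthetase family, stood at 8.04, 9.97 and 7.52 CPM in mKO reloading, against 3.28, 3.78 and 3.72 CPM in mKO unloading, a change of 1.25 ± 0.2 (adjusted p = 0.000347). Ifi44 rose by 1.56 ± 0.28 (adjusted p = 0.00101), and Isg15, Ifit1 and Ifit3 rose as well. Their summed level was 164, 175 and 163 CPM in mKO reloading, against 118, 135 and 124 CPM in mKO unloading and 163, 160 and 161 CPM in mKO control. The count was 7 without mKO unloading replicate 3 and 7 when only the 2 groups were modelled. Among 28 tested cytokines, chemokines and receptors 6 rose and 3 fell, and the rises numbered 3 without mKO reloading replicate 2 and 2 without mKO unloading replicate 3. Il1b, the inflammatory cytokine, was near the limit of detection, at 0, 0.0379 and 0.041 CPM in mKO reloading and at 0.393, 0.341 and 0.235 CPM in mKO unloading (adjusted p = 0.00981).

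Of 16 endothelial markers 4 rose and 0 fell. Aplnr, the apelin receptor of sprouting endothelium, stood at 27.8, 24.8 and 27.4 CPM in mKO reloading, against 5.96, 8.53 and 9.45 CPM in mKO unloading, a change of 1.74 ± 0.16 (adjusted p = 5.21e-06). Of 13 markers of fibro-adipogenic progenitors, the resident fibroblasts of muscle, 5 rose and Gsn fell, and the falls numbered 0 when any 1 of the 6 libraries other than mKO unloading replicate 2 was left out. Thy1 rose by 1.43 ± 0.16 (adjusted p = 2.65e-05) and Cd248 by 1.06 ± 0.17 (adjusted p = 0.000446), while their defining gene Pdgfra did not pass. The fibroblast markers summed to 1672, 1675 and 1701 CPM in mKO reloading, against 2007, 1763 and 1809 CPM in mKO unloading. Their median change was 0.26, so the sum and the median differed in direction. The collagen genes are also products of these cells and of tendon, and the tendon markers summed to 595, 869 and 619 CPM in mKO reloading, against 330, 483 and 404 CPM in mKO unloading, with 4 of 10 higher and Chodl lower. Kera, a keratan sulfate proteoglycan of cornea and tendon, rose by 1.5 ± 0.29 (adjusted p = 0.00159), and Scx and Mkx, the tendon cell factors, did not pass. Red cell genes summed to 130, 152 and 106 CPM in mKO reloading, against 56.7, 82 and 66 CPM in mKO unloading, with 4 of 7 called and 1 or 2 called without mKO reloading replicate 1 or 2 or mKO unloading replicate 1 or 3. The 12 Schwann cell genes included 0 that passed, and their sums overlapped at 346, 401 and 342 CPM in mKO reloading, against 203, 394 and 317 CPM in mKO unloading. The part of any of these cell markers in the changes of other lists was not tested.

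Other genes with large changes had no place in a list. Slc6a19, a transporter of neutral amino acids, stood at 1.81, 5.36 and 1.07 CPM in mKO reloading, against 0.218, 0.0455 and 0.128 CPM in mKO unloading, a change of 4.36 ± 0.59 (adjusted p = 9.2e-05). Tceal7 stood at 63.6, 244 and 133 CPM in mKO reloading, against 14.7, 22.7 and 22.5 CPM in mKO unloading, a change of 2.88 ± 0.37 (adjusted p = 6.41e-05). For both genes reloaded replicate 2 was the highest library, and without 1 library their changes ran from 3.42 to 4.93 and from 2.3 to 3.24. Igfn1, a fibre protein of the immunoglobulin and fibronectin family, stood at 25, 25.2 and 24.9 CPM in mKO reloading, against 231, 67 and 99.4 CPM in mKO unloading, a change of -2.4 ± 0.32 (adjusted p = 7.69e-05). Arrdc2, an arrestin-domain protein, stood at 6.28, 14.3 and 11.9 CPM in mKO reloading, against 74.9, 115 and 113 CPM in mKO unloading, a change of -3.21 ± 0.62 (adjusted p = 0.00164). Mylk2, the kinase of skeletal myosin light chains, stood at 585, 448 and 587 CPM in mKO reloading, against 1546, 1154 and 1499 CPM in mKO unloading, a change of -1.37 ± 0.12 (adjusted p = 5.21e-06).

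Set against mKO control muscle, which was never unloaded, fewer genes differed. Of 17833 genes 389 (2.18%) passed between mKO reloading and mKO control, 239 higher (1.34%) and 150 lower (0.841%). This comparison shares its 3 reloading libraries with the one above, so the values are given side by side. The fibrillar collagens, with a median of 1.32 against unloading, had a median of 0.2 against control, and 0 of 12 passed there. Col1a1 stood at 387, 502 and 560 CPM in mKO control, a range that held reloaded replicates 1 and 3 and that reloaded replicate 2 exceeded, and its difference from control was 0.26 (adjusted p = 0.729). Map1lc3a was at -0.05 against control (adjusted p = 0.832). Of the strain list 9 of 16 genes were higher than control, with a median of 0.83, for example Hspb7 at 1.54 (adjusted p = 0.0329) and Cryab at 1.22 (adjusted p = 0.0206). This list count was not repeated with single libraries left out. Against unloading, Hspb7 was not called without mKO reloading replicate 2 (adjusted p = 0.0753) or mKO unloading replicate 2 (adjusted p = 0.0515) or 3 (adjusted p = 0.0791). Fbxl22 at 1.93 (adjusted p = 0.00186), Slc6a19 at 4.28 (adjusted p = 0.00186) and Timp1 at 1.91 (adjusted p = 0.00573) were also higher than control. Pink1 at -0.57 (adjusted p = 0.00551) and Mylk2 at -0.93 (adjusted p = 0.00186) were lower than control, as was Chac1 at -2.6 (adjusted p = 0.011). Mki67, at 1.67, 2.82 and 2.12 CPM in mKO control, lay below all 3 reloaded libraries without passing (adjusted p = 0.0542). The count was 85 without mKO reloading replicate 2, 143, 156 and 125 without mKO control replicates 1, 2 and 3, and 891 with DESeq2.

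The change in mKO muscle was then tested against the same change in flox muscle, in which Zfp697 is intact. The interaction test called 0 of 17833 genes (0.0%) with edgeR, with a smallest adjusted p of 0.0671 and 1873 genes at an unadjusted p under 0.05, while DESeq2 called 142 genes, 16 of them with a more positive and 126 with a more negative change in mKO. The edgeR count was 98 without mKO reloading replicate 2, 3 without mKO unloading replicate 3 and 564 with no low-count filter. The 5 genes with the smallest interaction p in edgeR, none of which passed, were Carhsp1, Anln, Ptgs2, Incenp and Lbh. Carhsp1, a protein that binds cytokine messages, changed by -0.05 ± 0.08 in mKO and by 0.66 in flox muscle. Ptgs2, the inducible cyclooxygenase, changed by -0.11 ± 0.46 in mKO and by 3.57 in flox muscle. In DESeq2 the interaction of Carhsp1 was -0.71 (adjusted p = 0.000132) and that of Ptgs2 was -3.69 (adjusted p = 0.000366). Medians of the lists, given without a test, were 1.64 in mKO and 3.43 in flox muscle for mitosis genes, 0.38 and 1.24 for macrophage markers, and -0.15 and 0.62 for AP-1, EGR and serum response genes. They lay closer for autophagy genes, at -0.32 in both, and for basement membrane genes, at 0.68 in mKO and 0.79 in flox muscle.

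**Figure D5:**
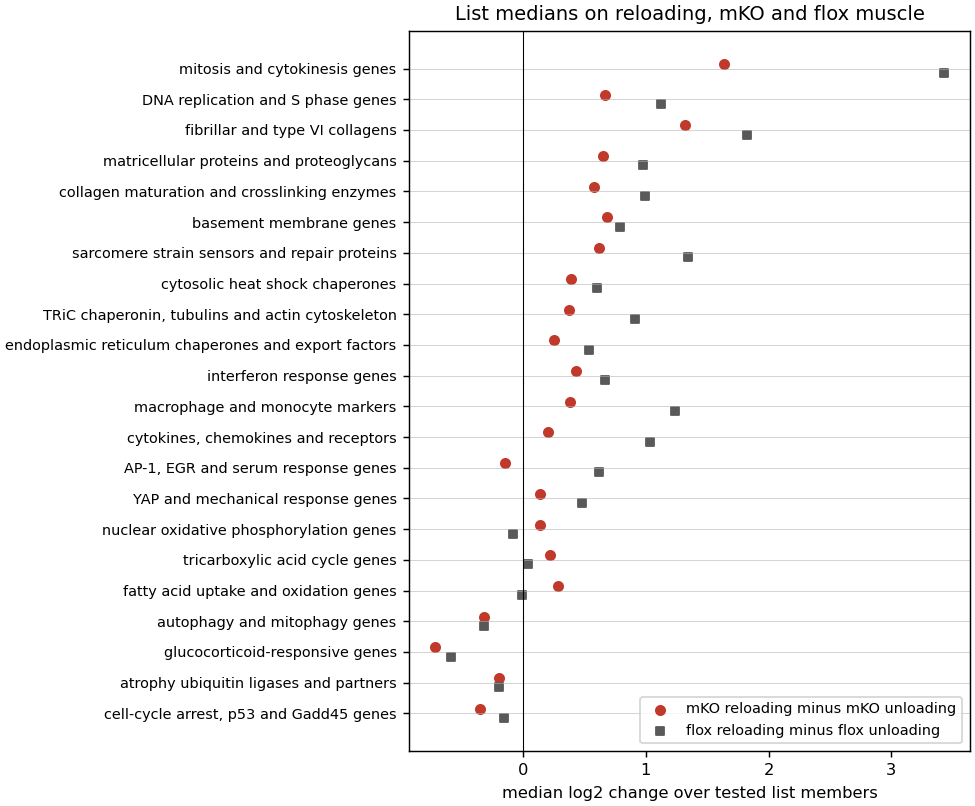
Median log2 change over the tested members of 22 lists, for mKO reloading minus mKO unloading (red circles) and flox reloading minus flox unloading (grey squares). Mitosis genes have medians of 1.64 in mKO and 3.43 in flox muscle, autophagy genes -0.32 in both, and no list was tested for a difference between the genotypes.

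The 3 reloaded libraries were not alike. Replicate 2 had a TMM factor of 1.046, against 0.9598 and 0.9523 in replicates 1 and 3, and the highest position of the 3 on the first principal component. It was the highest of the 3 for Cd68, Myog, Ankrd1, Slc6a19 and Tceal7 and for the summed strain list, at 14392 CPM against 12296 and 10513 CPM, and the lowest for the summed nuclear oxidative phosphorylation genes, at 14369 CPM against 18623 and 17809 CPM. It was in the middle for Mki67 and for Top2a, and highest for the summed collagens. Of the 227 genes picked by rule for naming 210 were called, and 143 of these were called without each single library in turn.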

How the data were processed

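Gastrocnemius RNA was sequenced after poly(A) selection with a stranded kit, per the labels' protocols. The deposited raw counts per gene were made by the authors with featureCounts 1.6.4 on the GRCm38 Ensembl release 94 annotation, per the file headers, with no option for strand or for multimapping reads. The submitters' processing notes name STAR 2.7.3a and featureCounts 2.0.3. By default featureCounts leaves out reads that map to several places, so near-identical genes (globins, tubulins, actins) may be undercounted. Overlapping and antisense genes, such as collagen host loci, may gain or lose reads. The authors' deposited table of log2 fold changes with p-values is cited only where named.

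From the counts of 54532 genes in 18 libraries (45069595 to 51592566 each), 17833 passed edgeR's filterByExpr. Counts were scaled by TMM and fitted with edgeR 4.0.16 (R 4.3.3) as 6 group means, with quasi-likelihood F tests and a Benjamini-Hochberg adjusted p under 0.05; SE is the log2 change divided by the root of F. Alternatives were DESeq2 1.42.0, other scalings and filters, a replicate block, only the compared groups, and each library left out. On simulated counts edgeR recovered 87% of 200 genes changed 2-fold between mKO reloading and mKO unloading, with 4 false calls among 17477 genes, and 69% for the interaction, with 5 false calls. The changed genes were drawn from those with a mean of at least 1 CPM, and no other difference between groups was simulated. These rates therefore do not cover smaller changes or genes at lower levels. Replicates differed by more than counting noise, with a chi-square per degree of freedom of 31.5 to 62.9 within the 2 main groups.

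Members and lists were chosen with earlier results of these data known. Some lists share members, so their counts are not independent. For example, Cdkn1a is in the arrest and glucocorticoid-responsive lists, and Mdm2 is in the arrest and ubiquitin ligase lists. Named genes were Zfp697, the 8 largest rises and falls in log2 and the 6 largest in CPM (called, ranges not overlapping, at least 1 CPM), up to 4 called members per list or, where fewer than 2 were called, the 2 most abundant, and the 5 smallest interaction p; other list members named were chosen after their values were seen. Promoters are RefSeq's, build GRCm38.p6. They covered 12305 tested genes (69.0%), under 80%, so no motif share is given for all called genes.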

Additional observations from a re-analysis of the deposited data

How the results depend on the processing

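The count of genes changed between mKO reloading and mKO unloading was 2107 (1113 higher, 994 lower) when the model held only those 2 groups, and 3047 to 3704 under other scalings, filters, the replicate block and DESeq2. Without 1 library it ran from 2058 to 3245, from 1039 to 1742 for rises and from 1019 to 1503 for falls. The interaction count, 0 with edgeR, was 564 with no low-count filter (164 more positive and 400 more negative in mKO), 142 with DESeq2 (16 and 126) and 10 with the replicate block (0 and 10). Without 1 library it ran from 0 to 98, from 0 to 23 for more positive and from 0 to 75 for more negative changes. Against mKO control the count was 1216 with no filter (678 higher, 538 lower), 138 with only the compared groups (105 and 33) and 891 with DESeq2 (526 and 365). Without 1 library it ran from 85 to 394, from 59 to 249 for rises and from 26 to 151 for falls. The cause was not tested, except that the model of compared groups holds fewer samples. Of the results that passed, 0 changed direction under the alternatives run, all of which reuse the same libraries. Among genes that did not pass, the sign turned when 1 library was left out for H2-Aa, Mmp9, Cd2, Zfp697 (-0.2 to 0.42) and Ptgs2 (-0.51 to 0.4). Libraries that share a replicate number did not deviate together between the 2 groups: their correlations over genes were -0.038, 0.021 and 0.085. With the replicate block 3454 genes were called between mKO reloading and mKO unloading. Of the 210 called genes picked for naming, 138 passed under every alternative run. Genes near a few reads per library, such as Bub1, Cdk1, Mymk and Il1b, are limited by depth.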

Other observations

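Iron, redox and lipid genes also changed in mKO muscle. Tfrc, the transferrin receptor that brings iron into cells, stood at 575, 450 and 541 CPM in mKO reloading, against 195, 277 and 231 CPM in mKO unloading, a change of 1.16 ± 0.27 (adjusted p = 0.00658). Slc40a1, the iron exporter ferroportin, stood at 26.4, 20.2 and 21.9 CPM in mKO reloading, against 41.4, 48.5 and 46.6 CPM in mKO unloading, a change of -1 ± 0.12 (adjusted p = 4.25e-05). Nqo1, a quinone reductase that Nfe2l2 controls, was at -0.96 ± 0.12 (adjusted p = 7e-05), and of 22 antioxidant and iron genes Tfrc rose and 6 fell. In cholesterol synthesis and uptake 7 of 20 genes rose and Fdft1 fell, with 4 rises without mKO reloading replicate 2 or mKO unloading replicate 1. Dhcr7, the enzyme of the last step to cholesterol, stood at 12.9, 11.3 and 11.9 CPM in mKO reloading, against 6.27, 7.4 and 6.88 CPM in mKO unloading, a change of 0.81 ± 0.1 (adjusted p = 6.3e-05).

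Of 19 clock genes 4 fell and 0 rose, and the falls numbered 3 to 5 when 1 library was left out. Per1 is also a member of the glucocorticoid-responsive list. Per1, a repressor in the clock's feedback loop, stood at 35.4, 21.3 and 37.4 CPM in mKO reloading, against 97.8, 76.4 and 100 CPM in mKO unloading, a change of -1.55 ± 0.27 (adjusted p = 0.000697). The time of day of sampling is not given in the sources used here. Of 20 cytosolic tRNA synthetase genes 5 fell and 0 rose, with 2 falls without mKO unloading replicate 1. Mars, the methionine enzyme, was at -0.55 ± 0.07 (adjusted p = 8.86e-05). Of 27 lysosomal genes 6 rose and 2 fell, among them Gusb, a glucuronidase, at 0.75 ± 0.13 (adjusted p = 0.000772), and the rises numbered 3 without mKO unloading replicate 1 or 3. The lysosomal falls numbered 3 without mKO reloading replicate 1, 0 without mKO reloading replicate 2 or 3 or mKO unloading replicate 1, and 1 without mKO unloading replicate 2 or 3. Among 9 adipocyte markers Car3 rose and Lep and Cidec fell, but these calls did not hold when some single libraries were left out. Whichever of the 6 libraries was left out, Lep was not called (adjusted p of 0.0523 to 0.136). Cidec was not called without mKO reloading replicate 1 or 3 or mKO unloading replicate 2 or 3 (adjusted p of up to 0.104), and Car3 was not called without mKO reloading replicate 3 or mKO unloading replicate 1 (adjusted p of up to 0.0981). Leptin was at 2.65, 3.79 and 2.34 CPM (Lep) in mKO reloading, against 8.49, 8.35 and 12.7 CPM in mKO unloading.

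Tpx2, the single mitosis gene that fell, stood at 3.04, 3.32 and 2.44 CPM in mKO reloading, against 7.05, 3.73 and 4.12 CPM in mKO unloading, and it was not called without mKO reloading replicate 3 or mKO unloading replicate 1. On chromosome 2, Tpx2 spans 152847964 to 152895321 (GRCm38, plus strand) and Mylk2, at 585, 448 and 587 CPM in mKO reloading against 1546, 1154 and 1499 CPM in mKO unloading, starts at 152911352 on the same strand.

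The authors' deposited table named for mKO reloading against mKO unloading lists 145 of 30881 genes with an adjusted p under 0.05, 129 lower and 16 higher. For Carhsp1 the authors' deposited table gives -0.66 (adjusted p = 0.000141), where DESeq2 on the counts gave -0.05 for the change in mKO muscle (adjusted p = 0.728) and -0.71 for the interaction with flox muscle (adjusted p = 0.000132). For Ptgs2 the authors' deposited table gives -2.87 (adjusted p = 0.00039), where DESeq2 on the counts gave -0.11 for the change in mKO muscle (adjusted p = 0.903) and -3.69 for the interaction (adjusted p = 0.000366). The contrast behind the authors' table is not stated in it. On the counts, DESeq2 called 142 genes for the interaction, 126 more negative and 16 more positive in mKO. For the change in mKO muscle it called 3704 genes, 1822 lower and 1882 higher. The authors' counts were thus close to those of the interaction, not to those of the mKO change. The same held for the adjusted p of Carhsp1 and Ptgs2, which were picked for a small interaction p. Which contrast the authors used was not tested.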
